A study of Mus musculus with 9 samples.

Results

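Butyrate and pentanoate are straight-chain fatty acids that differ by a single carbon, and their effects on the transcriptome of C2C12 cells were compared directly at a matched dose and time. C2C12 is an established line of mouse myoblasts, the precursor cells that fuse into muscle fibres. The comparison covers 6 of the 9 RNA-seq libraries of the study, chosen by treatment: 3 libraries of cells given 750 µM butyrate and 3 of cells given 750 µM pentanoate, both for 48 h. The other 3 libraries are controls; they entered the filter, the scaling and the estimate of the spread, took no part in the difference, and the sources used here do not say what these cells were given. All cells carried the genotype WT and grew in DMEM with fetal bovine serum and antibiotics. Cells of the butyrate and pentanoate libraries were given the acid once they had attached. No differentiation medium is named. The labels do not tell whether replicate libraries stem from different cultures; the p-values therefore reflect the scatter of these libraries alone, which may be technical. There is 1 pair of compounds, and therefore 1 comparison, fitted across all expressed genes.

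Short-chain fatty acids enter cells through monocarboxylate transporters and are activated to acyl-CoAs, which are shortened by beta-oxidation. Butyrate yields acetyl-CoA alone, whereas the odd chain of pentanoate also leaves propionyl-CoA, which is carboxylated and isomerised to succinyl-CoA. Butyrate is a classical inhibitor of class I histone deacetylases, enzymes that remove acetyl groups from histones and other proteins, and has long been used to alter the differentiation of cultured cells, myoblasts included.

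The butyrate libraries held 16295320 to 16798613 counts and the pentanoate libraries 18041090 to 19305981, so that the pentanoate libraries were all deeper; the part of this in the results was not tested, and counts were scaled for it. In a principal component analysis of the 6 libraries, the first component held 52.4% of the variance and separated the acids, with scores from −18.2 to −9.97 for butyrate and from 12.5 to 17.3 for pentanoate. Markers of the labelled cell type were present. Myod1, Myf5, Des, Cdh15, Itga7 and Pax7 were detected in every library, with summed levels of 1126 to 1433 CPM (counts scaled to a common library size, with no correction for gene length) with butyrate and 1270 to 1615 CPM with pentanoate. Of the markers of other cell types, Rbfox3, Snap25 and Dcx of neurons, Adgre1 of macrophages, Epcam of epithelium and Kdr of endothelium had no count in the 6 libraries. Others of the same types had counts, as with Cdh1 of epithelium (82 counts over the butyrate and 65 over the pentanoate libraries), Syp of neurons (16 and 3) and Pecam1 of endothelium (11 and 5). The summed level of 3 epithelial markers ran from 14.3 to 26.6 CPM with butyrate and from 26.9 to 65.0 CPM with pentanoate, nearly all of it the keratin gene Krt14; its part in the results was not tested. In bulk RNA, fewer cells of a type and less RNA per cell cannot be told apart.

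Pentanoate and butyrate gave different levels for 481 of the 14066 genes tested, or 3.42%, at an adjusted p under 0.05 in edgeR's quasi-likelihood test with Benjamini-Hochberg adjustment, the test behind every adjusted p given here. Of these genes, 255 (1.81% of those tested) were higher with pentanoate and 226 (1.61%) lower. The genes that were higher included matrix and smooth muscle genes, and those that were lower included glycolytic enzymes, chemokines and p53 targets. Of 29 sarcomere and contractile genes tested, 1 was called, 3.45% against 3.42% of all genes. Differences were moderate: the median log2 difference was 0.68 among genes higher with pentanoate and −1.06 among those lower, against 0.0032 over all genes tested. At least a 2-fold difference was fitted for 66 of the former and 118 of the latter. Genes lower with pentanoate were also less abundant, with a median of 8.74 CPM, against 53.5 CPM for those higher and 26.2 CPM for all genes. In all 481 genes the 3 pentanoate libraries lay wholly above or below the 3 butyrate libraries, a separation that 30.8% of all genes tested showed. Called genes had a higher GC content, with medians of 54.9% among those higher and 52.0% among those lower against 50.5% over all genes. Median gene length was 5042 bases among those higher and 3514 among those lower, against 4027.5 over all genes. The part of GC content and of length in the calls was not tested. Upper-quartile scaling gave 457 calls and turned the balance, with 188 higher and 269 lower. Lower calls were also the more numerous with scaling by library totals (215 higher, 237 lower), without control replicate 1 (185 and 198) and without butyrate replicate 2 (45 and 50).

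**Figure D1:**
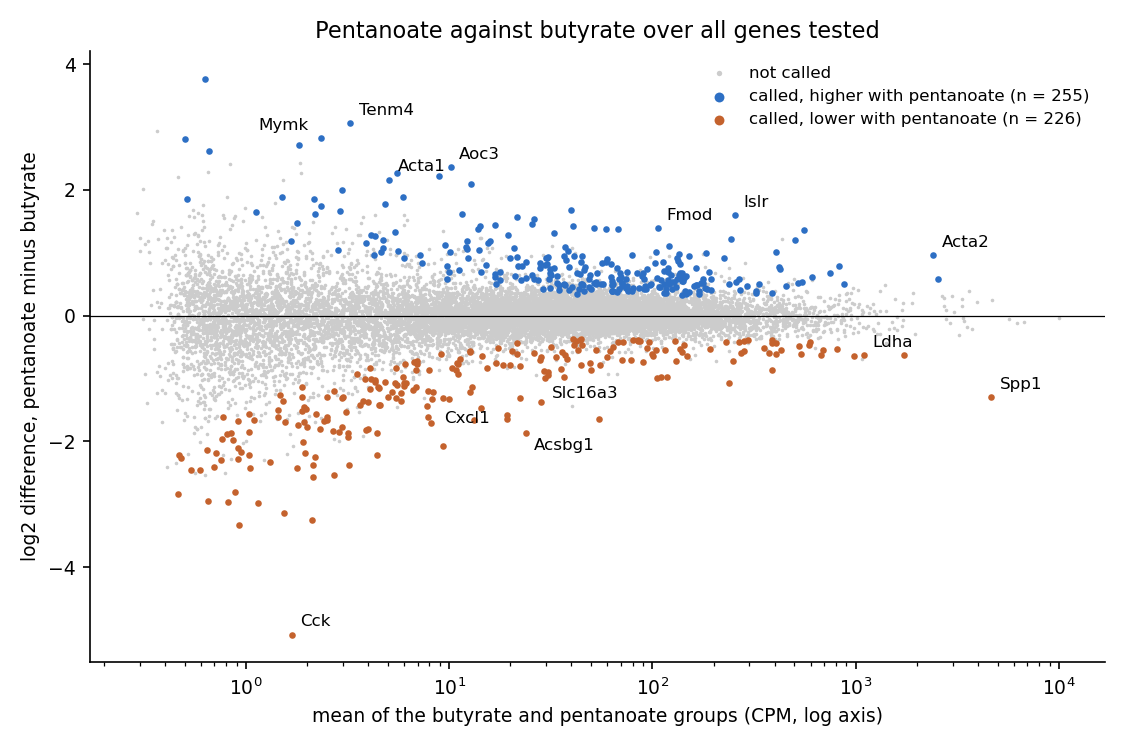
Log2 difference of pentanoate minus butyrate against the mean level of both groups (CPM, log axis) for the 14066 genes tested. Each point is a gene; blue marks the 255 genes called higher with pentanoate and orange the 226 called lower, and the lower ones reach further down among weakly expressed genes, as far as Cck at -5.07.

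The number of genes called turned on single libraries and on the model. It was 75, 176 and 166 without pentanoate replicate 1, 2 and 3, and 253, 95 and 101 without butyrate replicate 1, 2 and 3. It was 1469 without control replicate 3, a library with 3.95% of its counts on the mitochondrial chromosome against 1.79% to 2.28% in the 6 acid libraries, and 1365 with the 6 acid libraries alone. Libraries with the same replicate number deviated together. With the replicate number as a block, 1483 of the 14066 genes tested were called, 861 higher and 622 lower, with all 481 among them. Block counts of the gene lists below are to be read against this larger share. List counts without the block are to be read against the 3.42% of all genes. None of the 481 genes was called in the opposite direction in any of these fits. A core of 60 genes, 35 higher and 25 lower with pentanoate, is termed stable here. Of 19 other fits (scalings, filters, models, libraries left out), each that tested such a gene called it in the same direction. A fit whose filter dropped the gene was not counted, as with Mymk under the filter at a mean of 5 CPM. A call not termed stable was lost in at least 1 of the 19 fits.

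**Figure D2:**
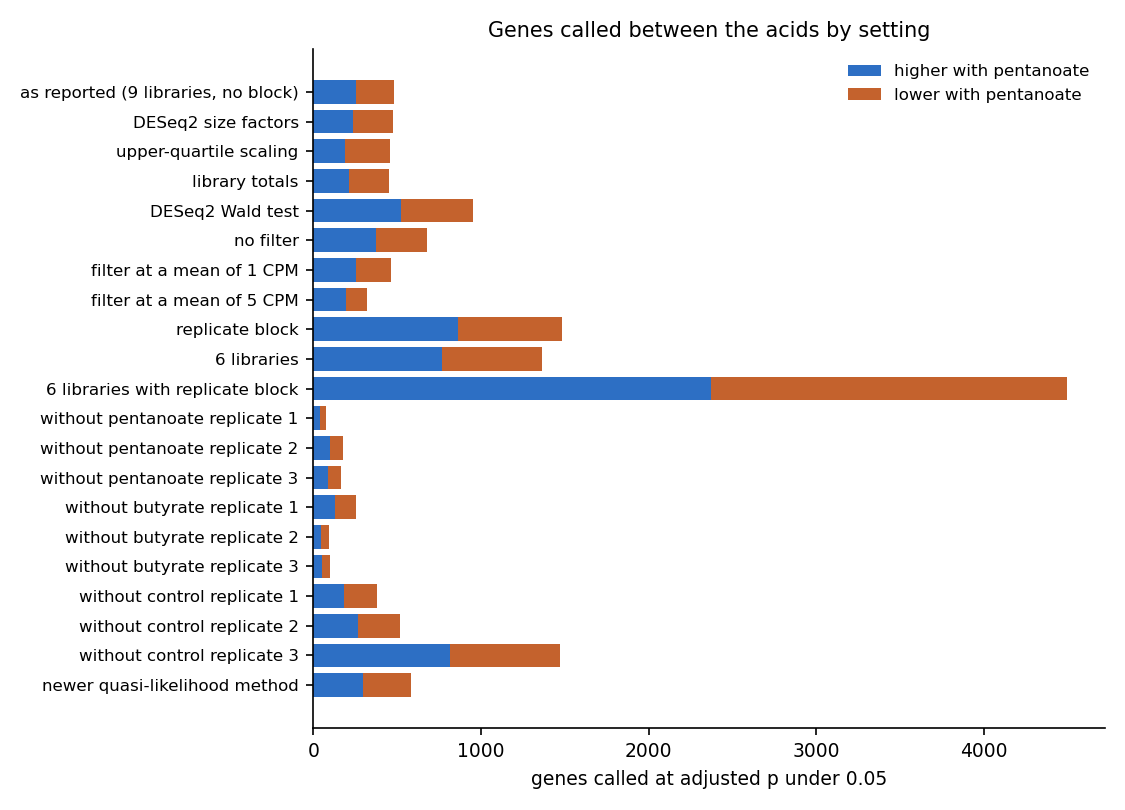
Genes called between the acids (adjusted p under 0.05) under each setting, as stacked bars of the genes higher (blue) and lower (orange) with pentanoate. The count ran from 75 without pentanoate replicate 1 to 4495 with the 6 acid libraries and the replicate block, around 481 as reported.

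Genes of skeletal muscle fusion and contraction were higher with pentanoate where they were called, and most were not called. Mymk (myomaker; ENSMUSG00000009214, chromosome 2, 27061636 to 27072179, coordinates on GRCm38), the membrane protein required for myoblast fusion, stood at 4.50, 3.14 and 4.69 CPM in pentanoate replicates 1, 2 and 3 and at 0.940, 0.302 and 0.482 CPM in butyrate replicates 1, 2 and 3, the order used throughout. Every pentanoate library exceeded every butyrate library, with a log2 difference of 2.82 (SE 0.43; adjusted p = 0.0073). The control libraries stood at 5.47, 2.57 and 4.34 CPM. Acta1 (ENSMUSG00000031972, chromosome 8, 123891769 to 123894751), the actin of the skeletal muscle sarcomere, stood at 8.74, 9.76 and 6.45 CPM with pentanoate and 1.88, 2.30 and 1.39 CPM with butyrate, a log2 difference of 2.16 (SE 0.23; adjusted p = 0.00197). The groups again did not overlap, and both genes were stable.

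The promoter of Acta1 is a textbook target of muscle transcription factors and is shown beside that of Acta2, the smooth muscle actin described next. The 250 bases upstream of each annotated start are from RefSeq, on GRCm38.p6, 5′ to 3′ on the gene's strand (chr8:123894776-123895025, minus strand; chr19:34255374-34255623, minus strand). Capitals mark the E-box CAGCTG and, in Acta1, a CArG box, the element named for serum response factor.

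Acta1: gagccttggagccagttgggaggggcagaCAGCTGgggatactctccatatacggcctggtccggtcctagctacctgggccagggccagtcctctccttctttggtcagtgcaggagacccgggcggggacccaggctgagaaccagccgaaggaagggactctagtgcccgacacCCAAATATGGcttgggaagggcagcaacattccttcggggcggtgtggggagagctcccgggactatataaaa
Acta2: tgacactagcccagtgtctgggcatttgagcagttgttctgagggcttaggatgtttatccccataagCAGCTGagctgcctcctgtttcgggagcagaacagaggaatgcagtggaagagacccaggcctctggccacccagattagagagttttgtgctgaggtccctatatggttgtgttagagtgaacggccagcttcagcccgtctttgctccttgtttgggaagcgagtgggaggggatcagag

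The search covered both strands, and CAGCTG is its own reverse complement. CAGCTG was present in windows of 14.7% of 27025 genes, in 10 of 23 sarcomere genes with a promoter in the table and in 4 of 19 smooth muscle genes. A CArG box was present for 1.62% of all genes, for 4 of the 23 and for 5 of the 19. Only exact matches to the CArG consensus were counted, elements with a mismatch were not searched for, and the Acta2 window held no exact match. These matches describe the letters of the windows and were not measured as binding sites.

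Of 29 sarcomere and contractile genes tested, Acta1 alone was called, against 3.42% of all genes; 0 were called lower, and the median log2 difference of the list was 0.59, from 0.32 to 0.64 over all the fits made. With the replicate block 11 of them were called higher and 0 lower. Of 21 late myogenic and fusion genes, 2 were called higher, Mymk and Klhl40, a stabiliser of thin filament proteins named here after its value was seen (log2 difference 1.85; adjusted p = 0.0438); with the block there were 7, all higher. Myog (myogenin), which drives terminal differentiation, varied widely between libraries of an acid. It stood at 5.28, 1.10 and 2.98 CPM with pentanoate and 1.06, 0.121 and 0.542 CPM with butyrate, a log2 difference of 2.43 (SE 0.77; adjusted p = 0.11) with a 95% interval from 0.73 to 4.12; the lowest pentanoate library was only just above the highest butyrate library, and with the block its adjusted p was 0.000548. Myh3, the embryonic myosin heavy chain, had a log2 difference of 1.76 (adjusted p = 0.287, and 0.0266 with the block).

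Among regulators of the myoblast state, Myod1, the transcription factor that commits cells to muscle, was higher with pentanoate. It stood at 84.5, 87.0 and 68.8 CPM with pentanoate, at 55.0, 46.6 and 34.8 CPM with butyrate and at 85.7, 96.7 and 70.6 CPM in the controls. The acids did not overlap, with a log2 difference of 0.82 (SE 0.17; adjusted p = 0.0304). The call was lost without pentanoate replicate 1, 2 or 3, butyrate replicate 2 or 3 or control replicate 1, where the adjusted p reached 0.134. Myf5, its early partner, had a log2 difference of -0.24 (95% interval -0.55 to 0.08; adjusted p = 0.45). Of 25 genes of this kind tested, 3 were called higher (Myod1, Id2 and Sox8) and 0 lower, and with the block 9 and 0.

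Smooth muscle genes and targets of serum response factor formed one of the groups with the largest share of calls: 6 of 25 tested were higher with pentanoate, 0 were lower, the median log2 difference was 0.40, and 5 of the 6 were stable. With the replicate block 16 were higher and 0 lower. Aoc3 (ENSMUSG00000019326, chromosome 11, 101330605 to 101341938), a copper amine oxidase of smooth muscle and fat, had the smallest adjusted p of the 481. It stood at 17.4, 15.3 and 18.7 CPM with pentanoate, 3.35, 3.08 and 3.55 CPM with butyrate and 32.0, 30.8 and 29.1 CPM in the controls. Both acid groups were tight and lay far apart, with a log2 difference of 2.36 (SE 0.13; adjusted p = 3.28e-05), and pentanoate libraries also stayed below every control library.

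Acta2 (ENSMUSG00000035783, chromosome 19, 34241090 to 34255336), the actin of smooth muscle and of contractile fibroblasts, was the most abundant of the group. It stood at 3396, 3179 and 2954 CPM with pentanoate and 1770.5, 1645 and 1487 CPM with butyrate, without overlap. The groups differed with a log2 difference of 0.96 (SE 0.10; adjusted p = 0.00197). Tgfb1i1 (Hic-5), a focal adhesion protein, had a log2 difference of 0.75 (SE 0.09; adjusted p = 0.00421), from 70.0 ± 5.99 CPM (SD, n = 3) with butyrate to 118 ± 6.20 CPM with pentanoate. The other called members, named after their values were seen, were the smooth muscle actin Actg2 (log2 difference 0.91; adjusted p = 0.00781), leiomodin Lmod1 (1.32; 0.00449) and calponin Cnn1 (0.95; 0.01). Tagln, a usual marker of the same programme, was not called, with a log2 difference of 0.91 and an adjusted p of 0.231, or 0.0406 with the block. The muscle actin genes (Acta1, Acta2, Actg2 and Actc1) share almost all of their coding sequence, so their separate values are uncertain. Hspb6, a small heat shock protein of muscle, was also higher, with a log2 difference of 1.03 (SE 0.13, adjusted p = 0.00421). It was the 1 gene called higher of 35 heat shock proteins and chaperones tested, a list in which 3 were lower. The median log2 difference of that list was -0.11, and with the block 1 was higher and 10 lower.

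Extracellular matrix genes were mostly higher with pentanoate where called. Of 50 collagens and matrix proteins tested, 9 were higher and 1 lower, with a median log2 difference of 0.29, from 0.18 to 0.36 over all the fits made; with the block the counts were 24 and 2. Fmod (fibromodulin; ENSMUSG00000041559, chromosome 1, 134037254 to 134048277), a small proteoglycan that binds collagen fibrils, stood at 167, 148 and 146 CPM with pentanoate and 60.2, 58.3 and 57.5 CPM with butyrate. These groups were well separated, with a log2 difference of 1.39 (SE 0.11; adjusted p = 0.000535). Islr (ENSMUSG00000037206, chromosome 9, 58156268 to 58204306), a secreted protein of mesenchymal cells, stood at 417, 327 and 409 CPM with pentanoate and 148, 100.4 and 133 CPM with butyrate. It was higher with pentanoate in every library, with a log2 difference of 1.60 (SE 0.16; adjusted p = 0.00172), and the controls held 412, 318 and 342 CPM.

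Of 34 matrix proteases, inhibitors and crosslinkers, 7 were higher and 1 lower, and with the replicate block 10 were higher and 6 lower. The stable ones were Aoc3, an amine oxidase counted in this list, and Adam12, a metalloprotease of fusing myoblasts. Levels of Adam12 were 56.7, 67.8 and 53.1 CPM with pentanoate and 22.0 ± 1.64 CPM (SD, n = 3) with butyrate. Its highest butyrate library was below its lowest pentanoate library. Adam12 did not overlap between the acids, with a log2 difference of 1.43 (SE 0.12; adjusted p = 0.000535). The lower one was Loxl2, a collagen crosslinker, at a log2 difference of -0.88 (adjusted p = 0.0139), and its call was lost without pentanoate replicate 1 or 2 or butyrate replicate 2 or 3, with an adjusted p of up to 0.0706. Of 36 integrins, laminins and dystrophin complex genes, 4 were higher and 1 lower (14 and 3 with the block), 13.9% called without the block against 3.42% of all genes. Itga11, a collagen receptor, was higher, with a log2 difference of 1.68 (SE 0.19; adjusted p = 0.00339), as was Sspn (sarcospan), a member of the dystrophin complex, with a log2 difference of 0.90 (SE 0.13; adjusted p = 0.00736). Itgb7, an integrin of leukocytes, was lower, with a log2 difference of -1.57 (SE 0.24; adjusted p = 0.00902), and lost its call without pentanoate replicate 1 (adjusted p = 0.0555).

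**Figure D3:**
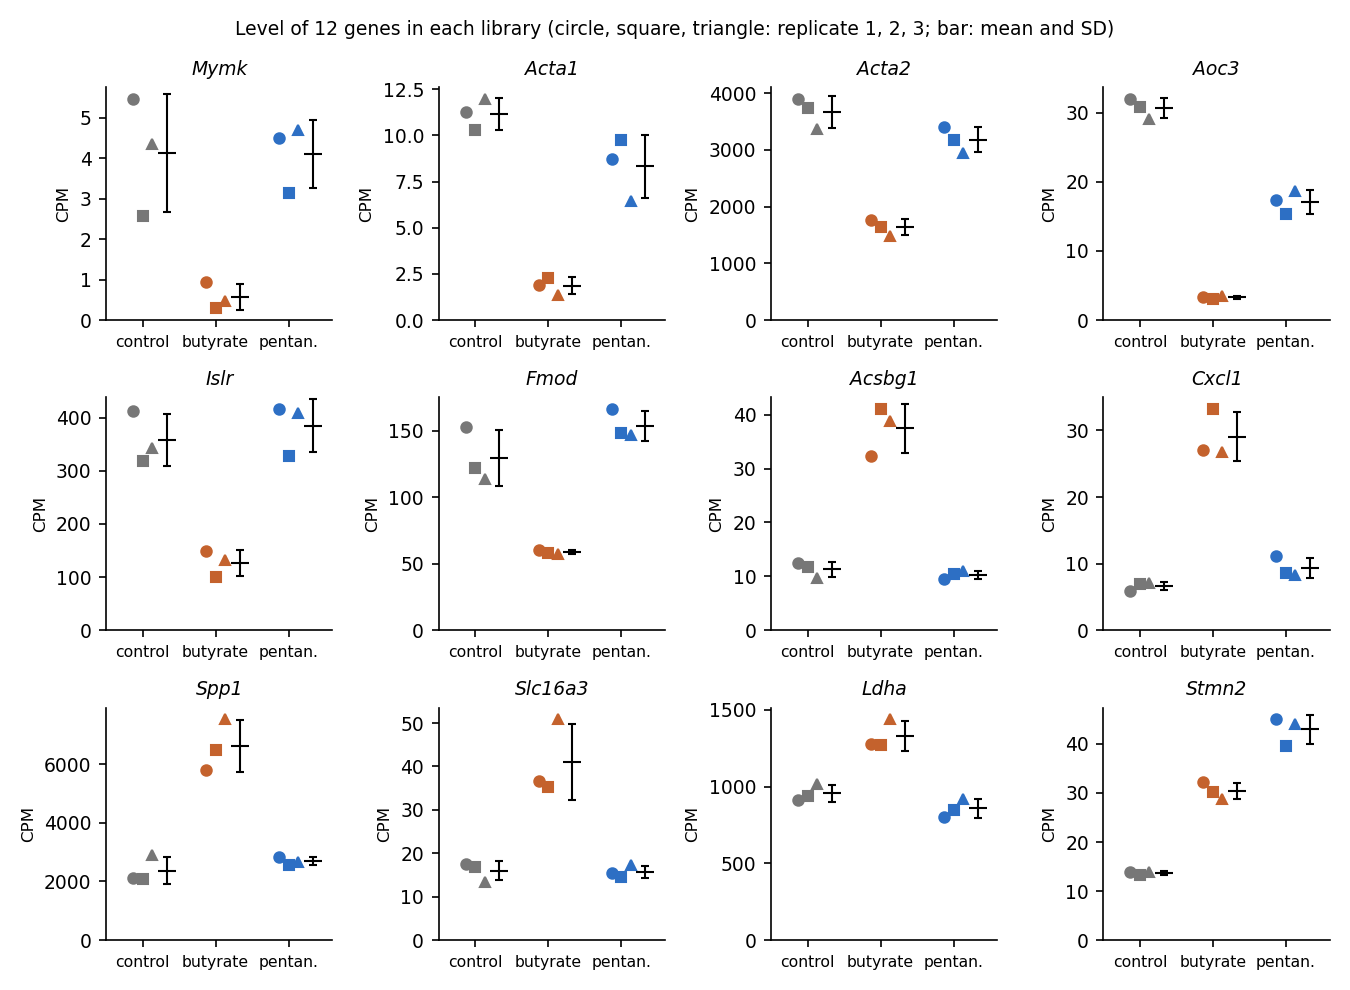
Levels (CPM) of 12 genes in each library; circles, squares and triangles are replicates 1, 2 and 3 of the control, butyrate and pentanoate groups, and the bar beside them is the mean and SD (n = 3). Pentanoate libraries lie above butyrate libraries for Mymk, Acta1, Acta2, Aoc3, Islr, Fmod and Stmn2 and below them for Acsbg1, Cxcl1, Spp1, Slc16a3 and Ldha, without overlap.

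Genes of growth factor pathways were mostly higher with pentanoate where called. Of 38 genes of TGF-beta, activin and BMP signalling, 4 were higher (Ltbp4, Tgfb3, Ltbp2 and Tgfb1, the last named after its value was seen) and 0 lower, and of 36 Wnt genes 6 were higher and 1 lower. With the block these counts were 9 and 2, and 12 and 1. Ltbp4, which tethers latent TGF-beta to the matrix, had a log2 difference of 0.86 (adjusted p = 0.00885), and was no longer called without pentanoate replicate 1 or butyrate replicate 2 or 3 (up to 0.0627). Among imprinted and insulin-like growth factor genes, 3 of 23 were higher and 1 lower (7 and 2 with the block). None of the calls without the block in this list, the TGF-beta list or the Wnt list was stable. H19 (ENSMUSG00000000031, chromosome 7, 142575529 to 142578143), an imprinted non-coding RNA made in abundance by muscle precursors, stood at 764, 773 and 867 CPM with pentanoate, 414, 239 and 282 CPM with butyrate and 542, 637 and 491 CPM in the controls. Every pentanoate library lay above the controls and every butyrate library below them, and the acids differed with a log2 difference of 1.36 (SE 0.18; adjusted p = 0.00526); the 6 acid libraries with the block gave an adjusted p of 0.0727. Stc2 (stanniocalcin 2), a secreted glycoprotein, was higher with pentanoate and stable, with a log2 difference of 1.89 (SE 0.20; adjusted p = 0.00218), at 2.52 ± 0.579 CPM (SD, n = 3) with butyrate and 9.31 ± 1.55 CPM with pentanoate. Other stable genes higher with pentanoate were Dusp27, a phosphatase-like protein of muscle (log2 difference 2.09; adjusted p = 0.00502), the neurodevelopmental gene Auts2 (1.40; 0.00151), the secreted angiopoietin-like protein Angptl2 (0.74; 0.00197) and the interferon-inducible GTPase Irgm1 (0.95; 0.00197).

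Glycolysis and the hypoxia response ran the other way. Of 46 genes tested, 5 were lower with pentanoate and 0 higher, and the median log2 difference of the list was −0.34, from −0.37 to −0.32 over all the fits made. The replicate block called 18 lower and 0 higher. The 3 called enzymes and Slc16a3, the lactate exporter from the transporter list, are shown with the 250 bases upstream of their start (RefSeq, GRCm38.p6), because hypoxia-inducible factor, their textbook activator, recognises the core ACGTG, given in capitals on either strand (CACGT on the other).

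Slc16a3: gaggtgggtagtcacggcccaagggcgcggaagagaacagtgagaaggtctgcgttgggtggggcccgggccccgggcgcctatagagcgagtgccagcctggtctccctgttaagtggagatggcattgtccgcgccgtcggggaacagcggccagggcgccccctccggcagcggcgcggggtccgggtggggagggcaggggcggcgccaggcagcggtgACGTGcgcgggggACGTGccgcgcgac
Pgk1: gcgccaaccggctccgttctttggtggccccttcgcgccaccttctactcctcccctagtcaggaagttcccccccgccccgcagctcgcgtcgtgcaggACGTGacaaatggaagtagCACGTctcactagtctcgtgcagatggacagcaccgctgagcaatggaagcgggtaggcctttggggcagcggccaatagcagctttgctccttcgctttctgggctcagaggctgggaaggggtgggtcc
Ldha: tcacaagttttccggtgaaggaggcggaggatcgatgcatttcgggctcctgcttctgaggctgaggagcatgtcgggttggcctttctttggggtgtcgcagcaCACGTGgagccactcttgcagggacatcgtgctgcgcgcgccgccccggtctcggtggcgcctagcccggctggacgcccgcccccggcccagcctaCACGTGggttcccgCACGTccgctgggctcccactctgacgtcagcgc
Pgam1: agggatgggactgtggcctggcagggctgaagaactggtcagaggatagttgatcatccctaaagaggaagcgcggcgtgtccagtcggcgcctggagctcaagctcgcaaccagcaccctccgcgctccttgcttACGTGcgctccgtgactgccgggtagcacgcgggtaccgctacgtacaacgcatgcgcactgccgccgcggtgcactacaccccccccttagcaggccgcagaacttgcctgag

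These windows lie at chr11:120948817-120949066, plus strand (inside the span the files give the gene, whose RefSeq start lies further downstream), at chrX:106186850-106187099, plus strand, at chr7:46845554-46845803, plus strand and at chr19:41911621-41911870, plus strand. Counting each strand, so that the palindrome CACGTG counts on both, they held 2, 2, 5 and 1 matches. Ldha has a further start in the table, whose window held 0. The core was present in a window of 18.5% of 27025 genes and of 22 of the 41 genes of this list that have a promoter in the table. A match describes the sequence and is no measurement of binding.

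Slc16a3 (MCT4; ENSMUSG00000025161, chromosome 11, 120948480 to 120960868), the transporter that exports lactate from glycolytic cells, was stable. It stood at 15.4, 14.5 and 17.3 CPM with pentanoate, 36.6, 35.2 and 51.0 CPM with butyrate and 17.6, 16.8 and 13.5 CPM in the controls. Pentanoate libraries lay within the range of the controls and well below the butyrate libraries, with a log2 difference of -1.38 (SE 0.16; adjusted p = 0.0034). Ldha, the subunit of lactate dehydrogenase that favours lactate formation, stood at 799, 850.1 and 922 CPM with pentanoate and 1275, 1272 and 1442 CPM with butyrate. Pgk1 (phosphoglycerate kinase) stood at 494, 545 and 564 and 787, 800.3 and 882 CPM, and Pgam1 (phosphoglycerate mutase) at 393, 431 and 446 and 614, 676 and 654 CPM, in the same order. None of these groups overlapped. The log2 differences were -0.63 (SE 0.09; adjusted p = 0.0073), -0.62 (SE 0.09; 0.00797) and -0.61 (SE 0.09; 0.0068). Ldha and Pgk1 lost their calls without pentanoate replicate 1, both at an adjusted p of 0.0521, whereas Pgam1 was stable. Glycolytic genes have many processed pseudogenes, so that reads of near-identical copies could be split between them.

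The transporter of the acids themselves was not called. Slc16a1 (MCT1), the transporter of both lactate and short-chain fatty acids, stood at 169, 175 and 147 CPM with pentanoate and 209, 243 and 186 CPM with butyrate. The groups did not overlap, and the log2 difference was -0.38 (95% interval -0.62 to -0.14; adjusted p = 0.0864, and 0.021 with the block). Its chaperone Bsg (basigin), named after its value was seen, was lower at -0.43 (adjusted p = 0.0278). Txnip, an arrestin-like brake on glucose uptake that deacetylase inhibitors commonly raise, was lower with pentanoate, with a log2 difference of -0.79 (SE 0.13; adjusted p = 0.0131); without pentanoate replicate 1 or 2 or butyrate replicate 2 or 3 its adjusted p reached 0.0704.

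Acsbg1 (ENSMUSG00000032281, chromosome 9, 54604877 to 54661870), an acyl-CoA synthetase of long and very long chain fatty acids, had the smallest p of the named genes lower with pentanoate. It stood at 9.52, 10.4 and 10.9 CPM with pentanoate, 32.3, 41.1 and 38.9 CPM with butyrate and 12.4, 11.7 and 9.72 CPM in the controls. The butyrate libraries stood alone at the high level, with a log2 difference of -1.87 (SE 0.13; adjusted p = 0.00028). Other enzymes of lipids and small molecules were lower with pentanoate than with butyrate and stable. They were the monoacylglycerol acyltransferase Mogat2 (-1.32, adjusted p = 0.00356), Ch25h, which makes 25-hydroxycholesterol (-1.80, 0.00421), the cytochrome P450 Cyp1b1 (-0.87, 0.00647) and the sulfite oxidase Suox (-0.97, 0.00495). Mean control levels were 2.07, 2.74, 233 and 23.6 CPM in this order. Means with pentanoate were 5.70, 1.77, 274 and 24.7 CPM, and with butyrate 14.2, 6.22, 501 and 48.6 CPM.

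Inflammatory mediators had the largest share of genes called lower among the lists with at least 10 tested. Of 27 tested, 7 were lower with pentanoate and 0 higher. Their median log2 difference was −0.17, from −0.37 to −0.16 over all the fits made. With the replicate block 10 were lower and 0 higher. Cxcl1 (ENSMUSG00000029380, chromosome 5, 90891241 to 90893115), a chemokine that draws neutrophils, stood at 11.1, 8.60 and 8.27 CPM with pentanoate, 27.1, 33.3 and 26.7 CPM with butyrate and 5.94, 6.93 and 7.06 CPM in the controls. It was the stable one of the 7, with a log2 difference of -1.64 (SE 0.15; adjusted p = 0.00124). Its relative Cxcl5 had a log2 difference of -1.65 (adjusted p = 0.0402), lost without any single acid library other than pentanoate replicate 3 and without control replicate 2, up to 0.169. Spp1 (ENSMUSG00000029304, chromosome 5, 104435118 to 104441050), or osteopontin, a secreted phosphoprotein of bone and injured muscle, was the most abundant gene called. It is not one of the 7. It stood at 2841, 2577 and 2674 CPM with pentanoate and 5809.6, 6482 and 7547 CPM with butyrate, without overlap, with a log2 difference of -1.29 (SE 0.14; adjusted p = 0.00227). Ptprc, Cd68, Adgre1 and Hbb-bs, markers of blood cells, summed to 1.68 to 2.84 CPM with butyrate and 0.827 to 1.43 CPM with pentanoate, mostly Cd68, with Adgre1 at 0; their part in these differences was not tested.

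Targets of p53 and genes of the oxidative stress response were also lower where called. Of 33 p53 targets, 4 were lower and 0 higher (median log2 difference −0.29; with the block 10 lower and 2 higher). Ccng1 (cyclin G1), a direct p53 target, was the stable one, at 146, 154 and 159.8 CPM with pentanoate and 294, 345 and 325 CPM with butyrate. Its groups lay apart, with a log2 difference of -1.07 (SE 0.15; adjusted p = 0.0073). Mdm2, the ubiquitin ligase that limits p53, was lower, with a log2 difference of -0.62 (SE 0.10; adjusted p = 0.0108), and lost its call without pentanoate replicate 3 or butyrate replicate 2 (up to 0.052). Cdkn1a (p21), the cell cycle inhibitor that both p53 and deacetylase inhibitors are known to raise, stood at 164, 166 and 136 CPM with pentanoate and 247, 314 and 207 CPM with butyrate, without overlap. Its log2 difference was -0.72 (95% interval -1.15 to -0.30; adjusted p = 0.0698), or an adjusted p of 0.00281 with the block. Of 36 oxidative stress genes, 5 were lower and 0 higher (13 and 0 with the block), among them Nqo1, a quinone reductase (-0.98; adjusted p = 0.0138), and Fth1, the ferritin heavy chain (-0.62; 0.0116). Nqo1 lost its call without pentanoate replicate 1 or 3 or butyrate replicate 2 or 3 (up to 0.0749), and Fth1 without pentanoate replicate 1 or butyrate replicate 2 or 3 (up to 0.0646).

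Genes of the neuronal cytoskeleton and synapse were called in both directions. Of 17 tested, 3 were higher with pentanoate and 3 lower (4 and 6 with the block). Of 38 genes of neural adhesion and axon guidance, 2 were higher (Tenm4 and Plxna2) and 1 lower (L1cam), or 9 and 1 with the block. Stmn2 (stathmin 2), a microtubule regulator of growing axons, stood at 45.2, 39.5 and 44.2 CPM with pentanoate, 32.2, 30.3 and 28.9 CPM with butyrate and 13.9, 13.3 and 13.8 CPM in the controls. Both acids lay above the controls and pentanoate above butyrate, with a log2 difference of 0.50 (SE 0.10; adjusted p = 0.0204); the call was lost without any single acid library other than pentanoate replicate 2 (up to 0.129). L1cam, an axonal adhesion molecule, ran opposite at 2.53, 3.97 and 4.02 CPM with pentanoate, 5.88, 8.88 and 7.89 CPM with butyrate and 0.641, 1.06 and 0.842 CPM in the controls. Its log2 difference of -1.10 (SE 0.25; adjusted p = 0.0387) was lost without any single acid library other than butyrate replicate 1 (up to 0.169). Kif1a, an axonal kinesin motor, was lower with pentanoate than with butyrate, with a log2 difference of -0.71 (SE 0.09, adjusted p = 0.00421), and stable. Its mean was 53.7 CPM with pentanoate, 87.7 CPM with butyrate and 29.0 CPM in the controls. Mapt (tau) had a log2 difference of -1.28 (adjusted p = 0.0525, and 0.0254 with the block). The neuronal marker genes Rbfox3, Snap25 and Dcx were at 0 counts, and the summed level of 6 neuronal markers was 5.46 to 7.97 CPM with butyrate and 3.98 to 5.29 CPM with pentanoate, nearly all Tubb3.

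The most negative fitted differences were in genes nearly silent with pentanoate. Cck, a gut and brain peptide hormone, had 15, 56 and 92 counts in butyrate replicates 1, 2 and 3, 2, 2 and 1 with pentanoate and 2, 1 and 0 in the controls. The butyrate libraries themselves varied widely, and the log2 difference of -5.07 (SE 1.02; adjusted p = 0.00823) was lost without pentanoate replicate 1 (adjusted p = 0.0521). Tlx2, a homeobox gene of the enteric nervous system, had 30, 19 and 24 counts with butyrate, 4, 4 and 2 with pentanoate and 0, 1 and 0 in the controls. Its log2 difference was -2.97 (adjusted p = 0.00823, and 0.0521 without pentanoate replicate 1). The most positive fitted difference was in Adamtsl2, a matrix protein of the fibrillin microfibrils. It had 3, 1 and 0 counts with butyrate, 34, 17 and 15 with pentanoate and 18, 8 and 15 in the controls. Its log2 difference of 3.77 (SE 0.91; adjusted p = 0.0184) was lost without pentanoate replicate 1 or butyrate replicate 2 or 3 (up to 0.105). Tenm4, a teneurin adhesion protein, came next and had 20, 4 and 11 counts with butyrate and 154, 95 and 79 with pentanoate. Its log2 difference of 3.06 (SE 0.49; adjusted p = 0.00871) was lost without pentanoate replicate 1 or butyrate replicate 3 (up to 0.0564).

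**Figure D4:**
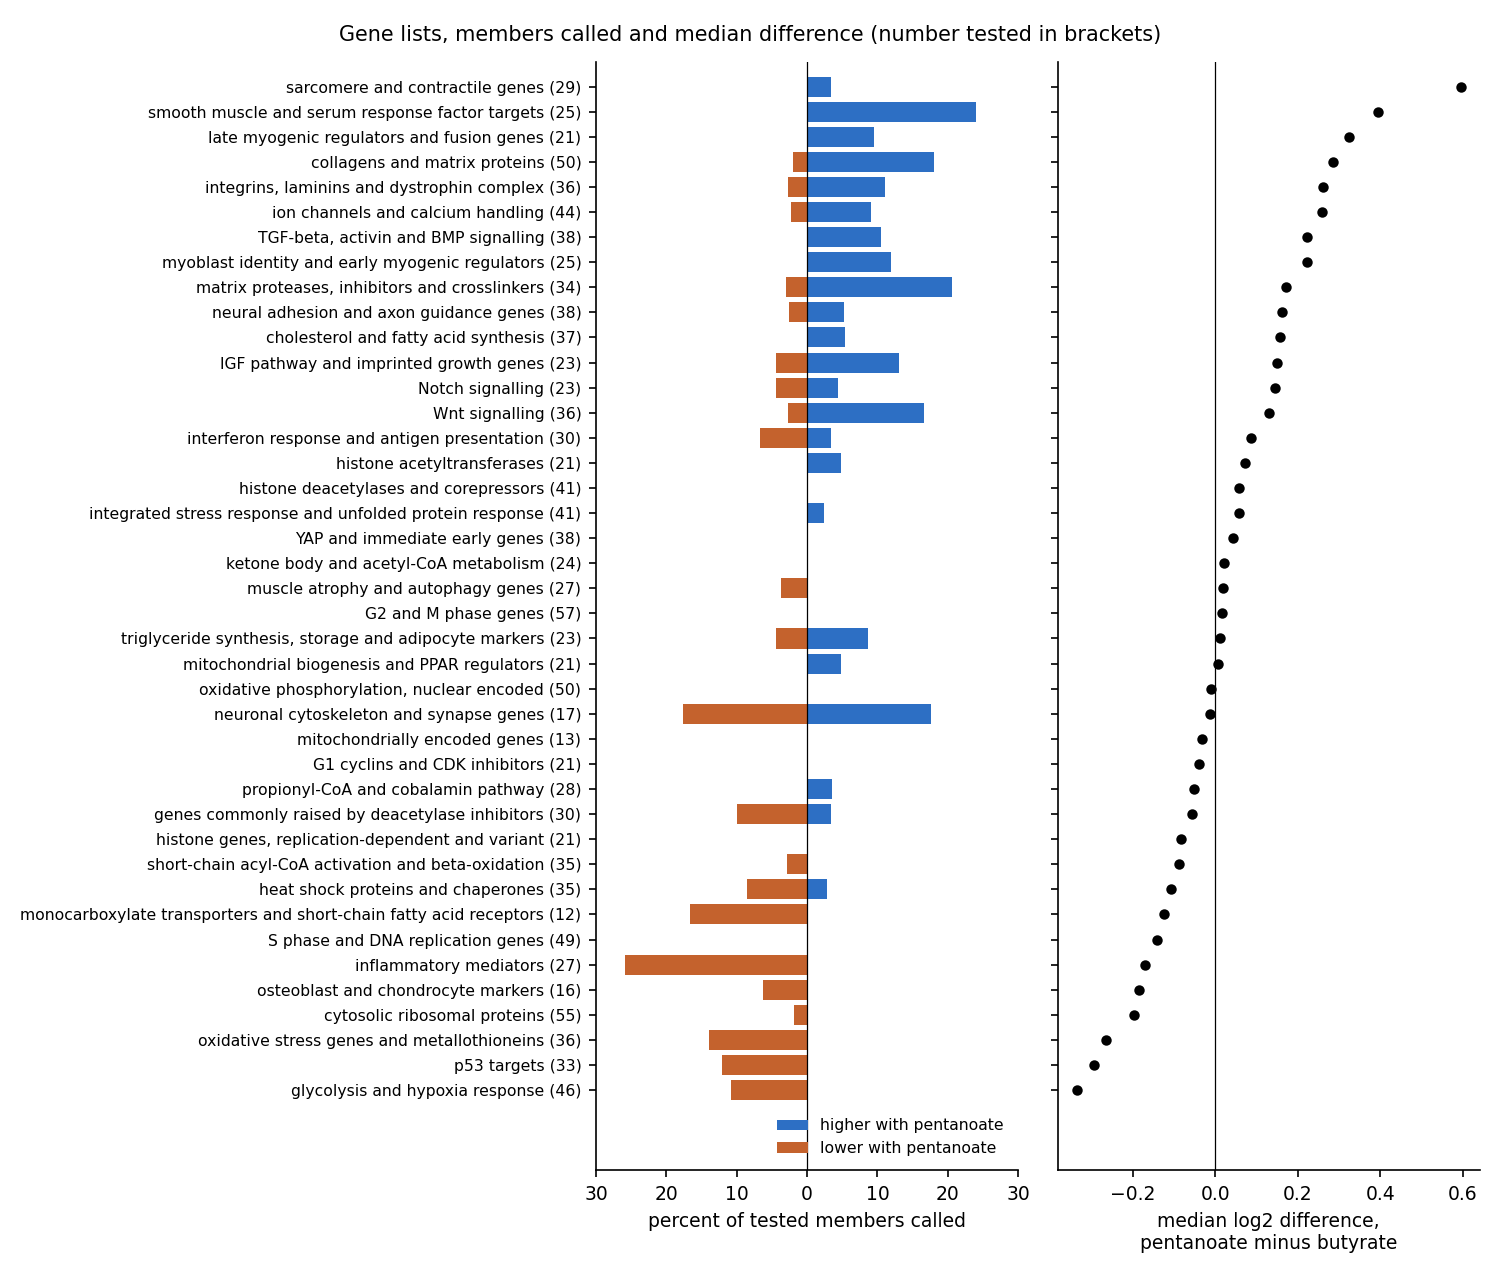
For each gene list with at least 10 tested members, the percent called higher (blue, right) or lower (orange, left) with pentanoate, and the median log2 difference over its tested members. Contractile, smooth muscle and matrix lists sit at the top with positive medians, glycolysis, p53 and oxidative stress lists at the bottom with negative ones, and deacetylase, G2 and M phase and respiratory chain lists have no call.

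For genes that were not called, the 95% intervals bound the difference. Of 12522 genes with at least 1 CPM in both acids, 7990 (63.8%) had a 95% interval wholly within a 1.5-fold difference, 22 of them called; for 1439 the interval reached beyond 2-fold. Among 41 histone deacetylase and corepressor genes tested, 0 were called in edgeR's test (2 at an unadjusted p under 0.05, 1 in DESeq2's Wald test and 1 with the replicate block, the remodeller Chd3), and 32 of 40 at 1 CPM in both acids lay within 1.5-fold. Hdac1 stood at 85.5, 89.5 and 95.5 CPM with pentanoate and 98.2, 114 and 98.1 CPM with butyrate, and the libraries of the acids lay close without overlapping. Its log2 difference was -0.20, with a 95% interval from -0.41 to 0.01 (adjusted p = 0.312). Hdac2 had 0.06 (interval -0.16 to 0.28) and Hdac3 -0.12 (-0.31 to 0.08). H1f0, the linker histone commonly raised by deacetylase inhibitors, had -0.15 (-0.38 to 0.07; adjusted p = 0.498). Of 30 genes that deacetylase inhibitors commonly raise, 1 was higher with pentanoate (Stmn2) and 3 lower (Txnip, Sat1 and Cited2, the last named after its value was seen), 13.3% against 3.42% of all genes; with the block 2 were higher and 6 lower. Levels of transcripts say nothing of enzyme activity, which was not measured.

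Genes of the pathways by which the 2 acids are oxidised were called at about the share of all genes, 3.42%. Of 28 genes of propionyl-CoA and cobalamin metabolism, 1 was higher, the methionine synthase Mtr (named after its value was seen; 0.35; adjusted p = 0.0479), 0 were lower (2 and 0 with the block), and 20 of 28 lay within 1.5-fold. Pcca, a subunit of propionyl-CoA carboxylase, stood at 37.2, 36.3 and 40.9 CPM with pentanoate and 39.7, 44.7 and 43.8 CPM with butyrate, an overlap of values with a log2 difference of -0.16 (-0.37 to 0.04; adjusted p = 0.409). Mut, methylmalonyl-CoA mutase, had -0.20 (-0.39 to -0.01; 0.259). Acads, the dehydrogenase that prefers butyryl-CoA, had 0.02 (-0.17 to 0.21; 0.945). Of 35 genes of acyl-CoA activation and beta-oxidation, 0 were higher and 1 lower, or 1 and 2 with the block. The lower one was the carnitine carrier Slc25a20, named after its value was seen (-0.52, adjusted p = 0.0426). Cpt1a, which commits long chains to mitochondrial oxidation, had -0.27 (-0.44 to -0.10; 0.0853, and 0.0345 with the block).

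Genes of S phase and of G2 and M phase gave no call. In edgeR's test 0 of 57 G2 and M phase genes were called (3 at an unadjusted p under 0.05, 0 in DESeq2's test and 1 with the block), and 56 of 57 lay within 1.5-fold. Of 49 S phase genes 0 were called (3 at an unadjusted p under 0.05, 0 in DESeq2's test), with 35 of 49 within 1.5-fold and 4 lower with the block. Mki67, the proliferation marker, had a log2 difference of -0.10 (-0.38 to 0.19; adjusted p = 0.771). Ccnd1 (cyclin D1), which drives entry into S phase, stood at 249, 351 and 298 CPM with pentanoate and 369, 527 and 410.1 CPM with butyrate, without overlap. Its log2 difference was -0.54 (-0.92 to -0.16; adjusted p = 0.128, and 0.0016 with the block). Of 21 G1 cyclin and CDK inhibitor genes 0 were called in edgeR's test, 5 were at an unadjusted p under 0.05, 2 were higher and 2 lower in DESeq2's test, 2 were higher and 3 lower with the block, and 12 of 21 lay within 1.5-fold. Nuclear genes of oxidative phosphorylation also gave 0 calls among 50 tested, with 1 at an unadjusted p under 0.05, 0 in DESeq2's test and 44 of 50 within 1.5-fold. Mitochondrially encoded genes gave 0 of 13 (1 at an unadjusted p under 0.05, 0 in DESeq2's test and 1 higher with the block), but only 3 of 12 could be bounded that tightly. Pdk4, a fat-induced brake on pyruvate oxidation, had 0.26 (0.07 to 0.46; 0.149).

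**Figure D5:**
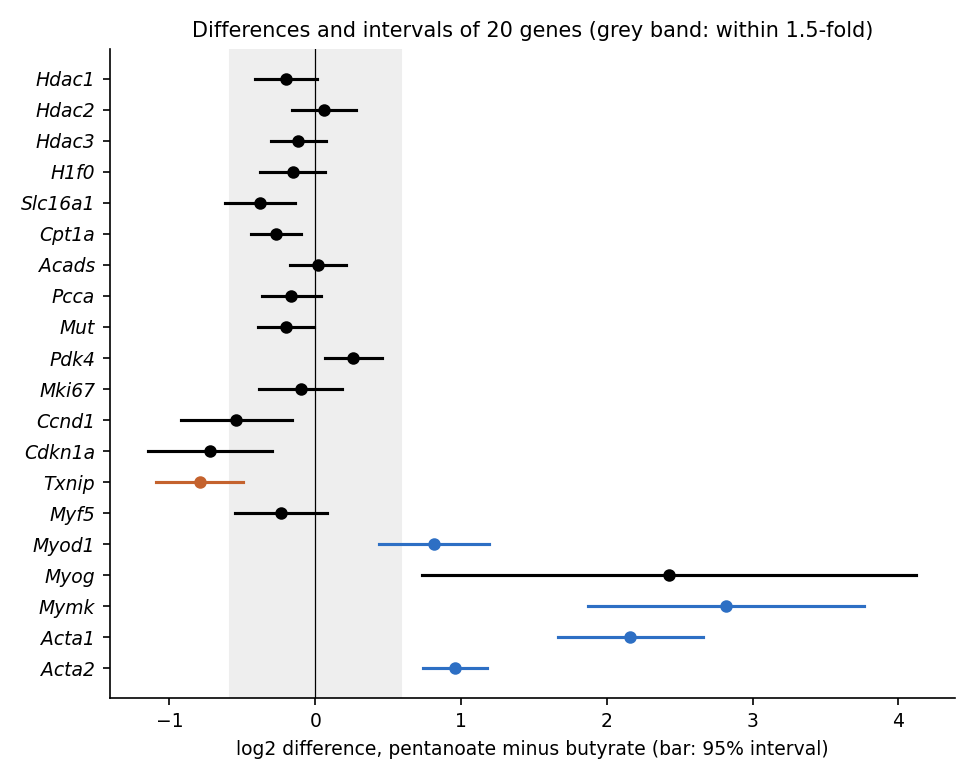
Log2 difference of pentanoate minus butyrate (points) with 95% intervals (bars) for 20 genes; blue and orange mark genes called higher and lower with pentanoate, black those not called, and the grey band a difference within 1.5-fold. Hdac1, Hdac2, Hdac3, H1f0, Acads, Pcca, Mut and Mki67 lie inside the band, whereas Acta1, Mymk and Acta2 lie wholly to its right.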

How the data were processed

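RNA from 9 C2C12 libraries (3 control, 3 butyrate, 3 pentanoate) was extracted with Trizol and made into libraries with a SMARTER mRNA-Seq kit, per the labels' protocols. The authors deposited raw counts per gene in 1 table; the submitters' processing notes name GRCm38 and mm10, while the sources used here give no aligner, counter or strand setting. Of 54697 lines, 28190 held no count. A further 165 lines carry no gene identifier from an annotation and hold 0.0918% to 0.107% of counts; 110 of them were tested. There were 0 unused columns of per-sample values.

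Counts were fitted with edgeR 4.0.16 in R 4.3.3 (filterByExpr by group, TMM scaling, robust quasi-likelihood fit, glmQLFTest) on all 9 libraries, with Benjamini-Hochberg adjustment over 14066 genes and calls at an adjusted p under 0.05; intervals are 95% intervals of the fitted log2 difference. Total counts per library ran from 15829262 to 19305981, and intervals on them cover the spread between libraries only as far as 3 replicates allow. The fit was tested on simulated data, where it called 54% of genes given a log2 difference of 0.585. It called 90% at 1 and 100% at 1.585 and at 2. Only genes at a mean of at least 5 CPM were changed, and the simulated libraries shared no deviation by replicate number. Same-numbered acid libraries correlated in their deviations from the group means (r = 0.27, 0.39 and 0.41, over the criterion of 0.1 in all 3 pairs, against −0.33 to −0.076 for other pairs), so the fit with replicate number as a block is given where it changes a call; the labels do not say what a number marks.

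Named genes include the 10 most positive and 10 most negative differences of pentanoate minus butyrate. These were taken among called protein-coding genes without overlap and with at least 1 CPM in either group. The others are the 10 stable genes of smallest p in each direction, the 3 members of smallest p in each list with 3 or more calls, and 26 genes chosen by role. There are 105 in all, printed in part. Genes outside this rule are said to be named after their values were seen. Members, lists and rule were chosen with earlier results of these data known. DESeq2 1.42.0 served as an alternative. Comparisons of either acid with the controls share the control libraries and are not used as results; control levels are description. Promoters are from RefSeq (GRCm38.p6), matched by symbol.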

Additional observations from a re-analysis of the deposited data

How the results depend on the processing

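Against 481 genes called, 255 higher and 226 lower with pentanoate, DESeq2's Wald test called 951 (523 and 428), the replicate block 1483 (861 and 622), the 6 acid libraries 1365 (766 and 599), and the 6 acid libraries with the replicate block 4495 (2373 and 2122); the last leaves few residual degrees of freedom. A filter at a mean of 5 CPM, which tests fewer genes, left 319, of which 123 were lower. Leaving out single libraries gave 75 to 1469 calls, 43 to 813 higher and 32 to 656 lower; the libraries whose removal moved the count beyond 1.5 times were each of the 6 acid libraries and control replicate 3. The cause of these shifts was not tested. Upper-quartile scaling made 41.1% of calls higher with pentanoate, against 53% as reported. A newer form of the quasi-likelihood method, chosen after seeing the data, called 582. The block kept all 481 calls and the 6 libraries 476; the block changed no call of a named gene beyond those given beside the results. No gene called as reported was called in the opposite direction. Depth limits genes under 1 CPM, and 1439 genes at or above it had intervals reaching beyond 2-fold.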

Other observations

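Single genes of fat storage and of the neuromuscular junction were also called between the acids. Of 23 genes of triglyceride storage and adipocytes, 2 were higher with pentanoate and 1 lower, 13% against 3.42% of all genes. With the block 4 were higher and 1 lower. The median log2 difference of the list was 0.01. Plin4, a lipid droplet protein of muscle and fat, was higher with pentanoate at 27.5 ± 4.03 CPM (SD, n = 3) against 11.3 ± 1.71 CPM with butyrate (log2 difference 1.29; adjusted p = 0.0178 in edgeR's quasi-likelihood test), and Cebpa, a regulator of fat cell genes, at 40.5 ± 6.88 against 21.1 ± 2.90 CPM (0.94; 0.00971). Plin2, the droplet coat protein of most cells, was lower (-0.40; 0.0426). Musk and Lrp4, the receptor kinase and co-receptor that gather acetylcholine receptors at the neuromuscular junction, were both higher. Their log2 differences were 0.65 and 0.71 (adjusted p = 0.0204 and 0.0201), and no list of junction genes alone was counted. None of these calls was stable. Plin4 lost its call without pentanoate replicate 1 or 2 or butyrate replicate 2 or 3 (adjusted p up to 0.11), Cebpa without pentanoate replicate 1 or butyrate replicate 2 (up to 0.058), Plin2 without any single acid library (up to 0.15), Lrp4 without pentanoate replicate 1 or 2 or butyrate replicate 2 or 3 (up to 0.123), and Musk without any single acid library (up to 0.112).

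Of 295 long intergenic non-coding RNAs tested, 1 was higher with pentanoate, H19, and 12 were lower, 4.41% in all against 3.42% of all genes. Of the 110 tested lines that carry no annotated identifier, 0 were higher and 5 lower, 4.55% in all against 3.42% of all genes. Cytosolic ribosomal protein genes had a median log2 difference of −0.20 over 55 genes, from −0.24 to −0.17 over all the fits made, with 1 called lower and 0 higher, and 7 lower with the replicate block.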
